A study of Mus musculus with 12 samples.

Results

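The c-Jun N-terminal kinase (JNK) cascade was followed through 10 genes in the livers of 12 mice. The genes were chosen by name, as the JNKs, the kinases above them and the partner of JNK on mitochondria, and all 10 were found among the 45777 genes of the table. They are *Mapk8* and *Mapk9* (JNK1 and JNK2), *Mapk14* (the p38α kinase), *Map2k4* and *Map2k7* (the MKK4 and MKK7 kinases), *Map3k5*, *Map3k11* and *Map3k7* (ASK1, MLK3 and TAK1), *Sh3bp5* (the mitochondrial protein SAB) and *Ripk1* (the receptor-interacting kinase RIPK1). Poly-A RNA of whole liver was sequenced from male C57BL/6 mice, 10 to 12 weeks old by the labels, with 3 livers in each of 4 groups. WT mice and mice labelled Gα12KO received either vehicle or acetaminophen (APAP), and the study's methods give an APAP dose of 300 mg/kg by intraperitoneal injection and sampling after 6 h. The Gα12KO mice are described as knockouts of *Gna12*, the gene of the G protein subunit Gα12, and the WT mice as their littermates of like age.

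In the JNK cascade, a stress signal activates a MAP kinase kinase kinase such as ASK1, MLK3 or TAK1, which phosphorylates MKK4 and MKK7, and these in turn phosphorylate JNK. In APAP poisoning of the liver, reactive metabolites and oxidants from mitochondria are known to keep JNK active, and active JNK binds SAB on the outer mitochondrial membrane, which raises the oxidant output further. These steps run through phosphorylation of protein, whereas the values here are amounts of mRNA and carry no measure of kinase activity.

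Total counts ranged from 49737950 to 69566079 per liver, and counts of the 10 genes from 797 to 6844. *Gna12* counts were 2472 to 4003 in the livers with the KO label and 1193 to 4373 in WT livers, and *Gna12* was not called between the labels (edgeR, adjusted p = 0.878 with vehicle and 0.993 after APAP). In these counts the transcript thus gave no check of the deletion, and groups are named by their label throughout. Apart from these counts, the study presents a genotyping PCR on tail DNA and a liver qRT-PCR of *Gna12* for WT and knockout mice. WT APAP liver 1 stood apart in blood content, with 238212 counts of the hemoglobin gene *Hba-a1* against 2551 to 7713 in the other 11 livers. It also had the highest counts of the neutrophil genes *S100a8* and *S100a9*, 1598 and 3384 against at most 235 and 579 in the others. WT vehicle liver 2 had the highest summed neutrophil markers of the vehicle livers, 39.4 TPM against 0.828 to 3.37 TPM in the others. It also had their highest *Jun*, *Junb* and *Atf3* counts, at 2174, 8387 and 173 against at most 932, 1546 and 37. Its *Map2k6* and *Bcl2l11* counts were their lowest, at 390 and 223 against at least 1254 and 259. After APAP over both labels, *Jun*, *Junb*, *Atf3* and *Bcl2l11* were called higher and *Map2k6* lower (edgeR). All 6 hepatocyte markers were detected in each group, and edgeR called 0 of the 6 after APAP over both labels, with 1 at an unadjusted p under 0.05. In whole liver, fewer cells of a type and less RNA per cell cannot be told apart.

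Start-site sequences are shown for 3 of the genes, *Mapk8* and *Mapk9* because these JNK genes moved in opposite directions after APAP, and *Map3k5* because its level with vehicle differed most between the labels among the 10 genes. Each is 300 bases of the first listed RefSeq start site (GRCm38.p6, 250 bases before that start and 50 after), which need not be the outermost one. They are printed 5′ to 3′ on the gene's strand, with each CG dinucleotide in capitals. *Mapk8* lies on the minus strand (chr14:33447109-33447408), *Mapk9* on the plus strand (chr11:49846501-49846800) and *Map3k5* on the plus strand (chr10:19934276-19934575). The annotated *Map3k5* gene begins at 19934101, so its whole window lies within the gene. For *Mapk8* the annotated gene reaches to 33447353, so most of its window lies within the gene.
Mapk8: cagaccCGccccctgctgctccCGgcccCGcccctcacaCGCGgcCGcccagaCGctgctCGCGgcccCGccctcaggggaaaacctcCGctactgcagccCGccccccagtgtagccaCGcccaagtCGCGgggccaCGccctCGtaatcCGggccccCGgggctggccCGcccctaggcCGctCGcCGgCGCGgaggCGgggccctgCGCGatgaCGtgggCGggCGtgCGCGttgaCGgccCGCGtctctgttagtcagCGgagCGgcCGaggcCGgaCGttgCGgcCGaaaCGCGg
Mapk9: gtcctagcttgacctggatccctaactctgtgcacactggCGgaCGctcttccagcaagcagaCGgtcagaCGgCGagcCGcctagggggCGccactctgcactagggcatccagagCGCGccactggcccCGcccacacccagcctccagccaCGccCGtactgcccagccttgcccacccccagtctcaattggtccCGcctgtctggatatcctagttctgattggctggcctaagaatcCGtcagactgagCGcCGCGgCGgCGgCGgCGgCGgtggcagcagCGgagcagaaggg
Map3k5: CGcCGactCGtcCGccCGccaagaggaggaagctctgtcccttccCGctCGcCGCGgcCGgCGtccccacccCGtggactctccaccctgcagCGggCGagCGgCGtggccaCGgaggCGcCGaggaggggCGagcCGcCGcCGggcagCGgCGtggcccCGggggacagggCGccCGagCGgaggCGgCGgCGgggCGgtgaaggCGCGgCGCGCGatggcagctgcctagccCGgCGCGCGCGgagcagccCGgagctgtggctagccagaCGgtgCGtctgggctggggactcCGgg
These windows hold 45, 23 and 47 CG dinucleotides, above the median of 7 over the 32851 mouse start-site windows of the same length, and their GC content is 77.7%, 66.7% and 79.7% against a median of 52.7%. The AP-1 motif TGANTCA (the same on both strands) is in none of the 3, and the cyclic AMP response motif TGACGTCA is in none either. Among all 16 windows of the 10 genes, TGANTCA occurs only in the second window of *Map2k7*, 92 bases before its start. These letters occur in 7.81% (TGANTCA) and 1.79% (TGACGTCA) of all windows.

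By mRNA level, *Mapk14* had the highest group mean of the 10 transcripts and *Mapk8* the lowest in each of the 4 groups. This is on the TPM scale, which is per transcript length. *Mapk14* averaged 46.6 ± 10.0 TPM in the 6 vehicle livers and 31.6 ± 12.2 TPM in the 6 APAP livers (mean ± SD). *Mapk8* averaged 4.75 ± 0.381 TPM with vehicle and 6.41 ± 1.21 TPM after APAP. By ranges over livers most neighbours in the order were not separated, and the ends were separated only in some groups. Of the 9 neighbouring pairs, 3 had separate ranges in WT vehicle livers, 0 in WT APAP livers, 2 in KO-label vehicle livers and 2 in KO-label APAP livers. *Mapk14* was separate from the next gene in both vehicle groups, and *Mapk8* from the gene above it in each group except WT APAP livers. The ranges of *Mapk14* and *Map3k5* overlapped in both APAP groups, and those of *Sh3bp5* and *Mapk8* overlapped in WT APAP livers. In WT vehicle livers *Map3k5* was the second most abundant, at 26.5 ± 4.36 TPM (n = 3), whereas in KO-label vehicle livers it stood seventh, at 13.9 ± 2.09 TPM (n = 3). TPM of WT APAP liver 1 was the lowest of all 12 livers for 7 of the 10 genes, so changes within a gene are given below in CPM, read counts scaled to library size after TMM normalization.

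**Figure D1:**
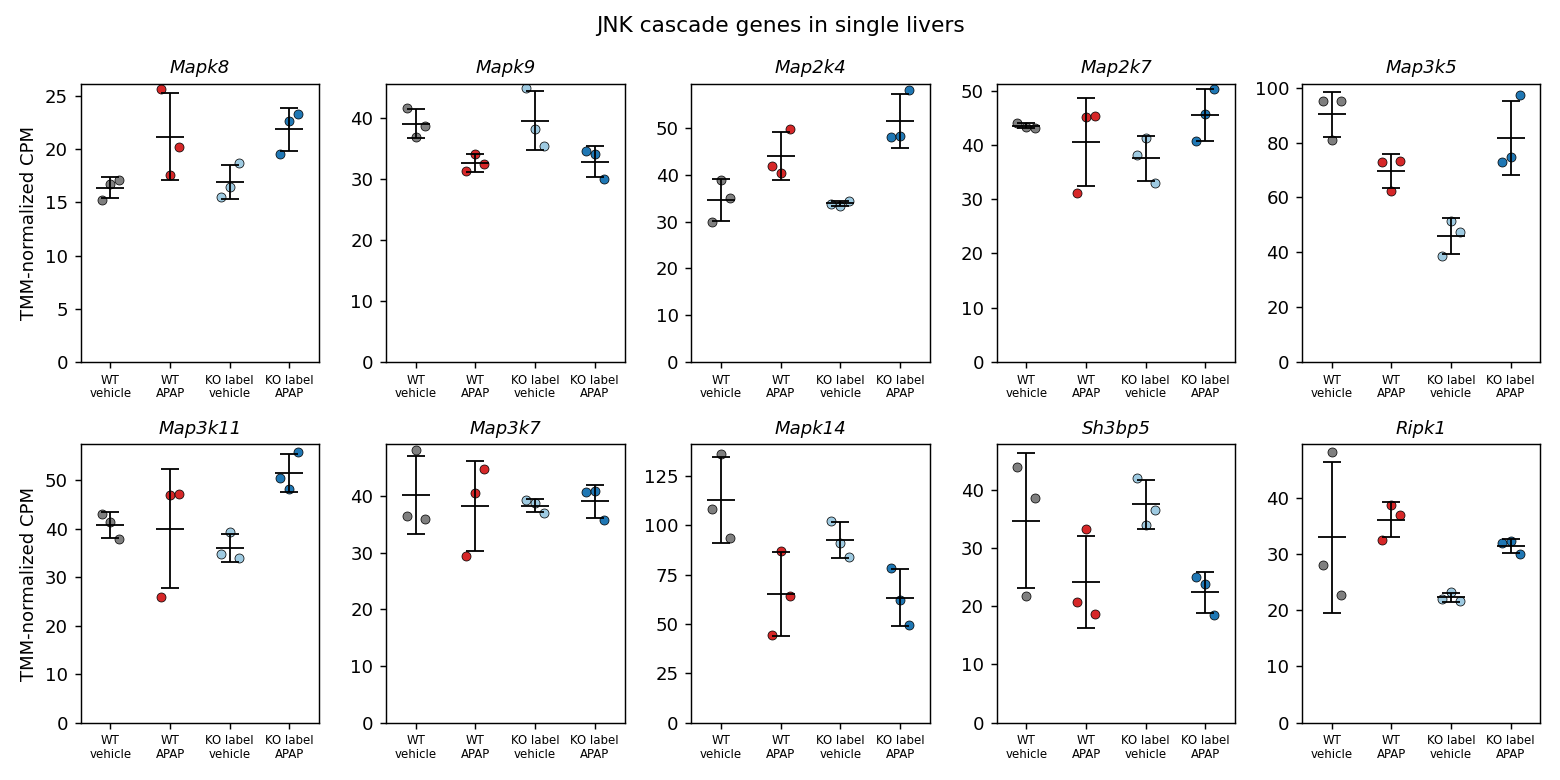
TMM-normalized CPM of each of the 10 genes in single livers (points, n = 3 per group), with group mean and SD (bars). *Mapk9* lies between 29.9 and 34.5 CPM in the 6 APAP livers and between 35.4 and 44.8 CPM in the 6 vehicle livers, and *Map3k5* is lowest in the KO-label vehicle livers.

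To ask whether APAP changed the cascade, the 6 APAP livers were compared with the 6 vehicle livers with the genotype label as a covariate (edgeR quasi-likelihood test, Benjamini-Hochberg adjusted over 16509 genes). *Mapk8* and *Map2k4* rose, and *Mapk9*, *Mapk14* and *Sh3bp5* fell. Thus 2 of the 10 genes were called higher and 3 lower, where 14.0% of all genes tested were called higher and 11.4% lower (2307 and 1880 genes, or 1932 and 2509 with limma on quantile-normalized log2(TPM + 1)). The median absolute log2 fold change was 0.29 over the 10 genes and 0.33 over all genes tested. Without WT APAP liver 1 and WT vehicle liver 2, an analysis added after the data were seen, 4 of the 10 genes were called higher (with *Map3k11* and *Ripk1*) and 3 lower, where 18.4% of all genes were called higher and 14.9% lower.

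The JNK genes moved in opposite directions. In vehicle livers, *Mapk8*, which encodes JNK1, gave 15.2, 16.7 and 17.1 CPM in WT and 15.5, 16.5 and 18.7 CPM under the KO label. After APAP it gave 25.6, 17.6 and 20.2 CPM in WT and 19.5, 22.7 and 23.3 CPM under the KO label. The ranges overlapped only through WT APAP liver 2, and the log2 fold change was 0.37 (SE 0.10, adjusted p = 0.0204). *Mapk9*, which encodes JNK2, gave 41.6, 36.8 and 38.7 CPM in WT vehicle livers and 44.8, 38.2 and 35.4 CPM in KO-label vehicle livers. After APAP it gave 31.2, 34.1 and 32.4 CPM in WT and 34.5, 34.0 and 29.9 CPM under the KO label. All 6 APAP livers were below all 6 vehicle livers, with a log2 fold change of -0.26 (SE 0.09, adjusted p = 0.0379). The *Mapk9* call was kept in 3 of the 12 fits that left out 1 liver, those without WT vehicle liver 2, WT APAP liver 2 or KO-label vehicle liver 3, and its adjusted p reached 0.101 without KO-label APAP liver 3. *Mapk10*, the gene of JNK3, had 0 counts in all 12 livers and was not tested.

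*Mapk14*, which encodes the stress kinase p38α that MKK4 can also phosphorylate, had the largest change of the 10 genes. It gave 108, 136 and 93.6 CPM in WT vehicle livers and 102, 90.8 and 84.1 CPM in KO-label vehicle livers. After APAP it gave 44.4, 86.9 and 64.3 CPM in WT and 78.3, 62.2 and 49.5 CPM under the KO label. Only WT APAP liver 2 reached into the vehicle range. The log2 fold change was -0.67 (SE 0.17, adjusted p = 0.0119), and the call was kept in all 21 alternative analyses of this comparison.

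The proportions of the kinase transcripts were compared within single livers. The TPM ratio of *Mapk9* to *Mapk8* was 2.27 to 3.47 in the 6 vehicle livers and 1.44 to 2.29 in the 6 APAP livers, with means of 2.84 ± 0.432 and 1.84 ± 0.332 (SD). The ranges met only at KO-label vehicle liver 3 and WT APAP liver 2. The ratio of *Mapk14* to *Mapk8* averaged 9.81 ± 2.08 with vehicle and 4.94 ± 1.92 after APAP (SD, n = 6 each), and that of *Map2k7* to *Map2k4* averaged 1.29 ± 0.194 and 0.997 ± 0.136. These ratios were not tested. *Mapk9* transcripts remained more abundant than *Mapk8* transcripts in all 12 livers.

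**Figure D2:**
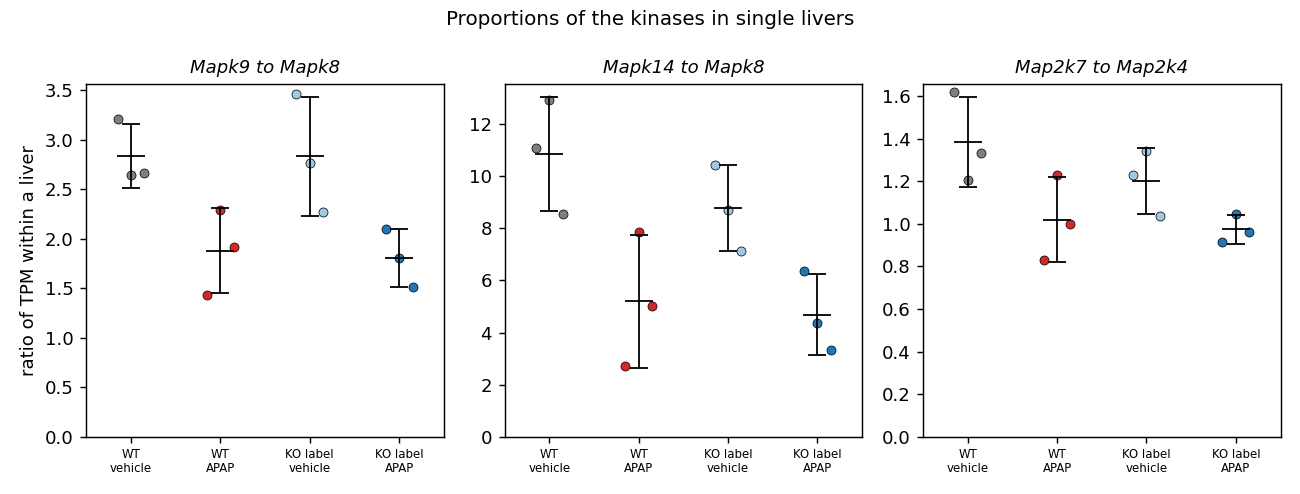
Ratios of TPM within single livers (points, n = 3 per group), with group mean and SD (bars), for *Mapk9* to *Mapk8*, *Mapk14* to *Mapk8* and *Map2k7* to *Map2k4*. The mean *Mapk9* to *Mapk8* ratio was 2.84 in WT and 2.83 in KO-label livers with vehicle, and 1.88 and 1.81 after APAP.

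Of the MAP kinase kinases that phosphorylate JNK, *Map2k4* rose and *Map2k7* was not called. *Map2k4*, which encodes MKK4, gave 30.0, 38.9 and 35.2 CPM in WT vehicle livers and 33.9, 33.5 and 34.5 CPM in KO-label vehicle livers. After APAP it gave 42.0, 40.3 and 49.8 CPM in WT and 48.2, 48.3 and 58.1 CPM under the KO label. All 6 APAP livers were above all 6 vehicle livers, with a log2 fold change of 0.47 (SE 0.10, adjusted p = 0.00479), and the call was kept in all 21 alternatives. *Map2k7*, which encodes MKK7, ranged from 33.1 to 44.1 CPM with vehicle and from 31.2 to 50.3 CPM after APAP. Its log2 fold change was 0.09 (SE 0.12, adjusted p = 0.637).

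*Sh3bp5*, the gene of the mitochondrial JNK partner SAB, fell. It gave 43.8, 21.7 and 38.5 CPM in WT vehicle livers and 42.0, 33.8 and 36.5 CPM in KO-label vehicle livers. After APAP it gave 20.7, 33.2 and 18.6 CPM in WT and 24.9, 23.7 and 18.4 CPM under the KO label. WT vehicle liver 2 and WT APAP liver 2 lay on the far side of their groups. The log2 fold change was -0.63 (SE 0.19, adjusted p = 0.0246). The call was lost in 5 of the 12 fits that left out 1 liver, those without WT vehicle liver 1 or 3, WT APAP liver 3, KO-label vehicle liver 1 or KO-label APAP liver 3, with an adjusted p of up to 0.0674.

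The other members, the 3 MAP3K genes and *Ripk1*, were not called across both labels. *Map3k11*, of the mixed-lineage kinase MLK3, had a log2 fold change of 0.25 (SE 0.16, adjusted p = 0.279). It gave 25.8 CPM in WT APAP liver 1 and 47.0 to 55.9 CPM in the other APAP livers, against 34.0 to 43.0 CPM with vehicle, and without WT APAP liver 1 it was called (log2 fold change 0.39, adjusted p = 0.00851). *Ripk1*, whose kinase joins the TNF receptor to JNK signaling and cell death, had a log2 fold change of 0.31 (SE 0.16, adjusted p = 0.171). It gave 48.1 CPM in WT vehicle liver 2 and 21.6 to 28.1 CPM in the other vehicle livers, against 30.0 to 38.6 CPM after APAP, and without WT vehicle liver 2 it was called (log2 fold change 0.50, adjusted p = 0.00181). WT APAP liver 1 is the liver with the high blood and neutrophil transcripts given above. WT vehicle liver 2 is that with the highest neutrophil, *Jun*, *Junb* and *Atf3* transcripts of the vehicle livers. The part of those differences in the values was not tested. *Map3k7*, of TAK1, ranged from 29.4 to 48.2 CPM over all 12 livers, with a log2 fold change of -0.02 (SE 0.12, adjusted p = 0.909).

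*Map3k5*, the gene of the oxidant-sensing kinase ASK1, was the member in which the labels parted. With vehicle it gave 95.1, 80.9 and 95.0 CPM in WT and 38.6, 51.5 and 47.5 CPM under the KO label. After APAP it gave 73.1, 62.3 and 73.4 CPM in WT and 73.0, 74.7 and 97.4 CPM under the KO label. The 3 WT livers after APAP were all below the 3 WT livers with vehicle, and the 3 KO-label livers after APAP were all above those with vehicle. The change was -0.37 (SE 0.16, adjusted p = 0.298) in WT and 0.84 (SE 0.16, adjusted p = 0.00917) under the KO label, both as log2 fold changes, and over both labels it was 0.23 (SE 0.20, adjusted p = 0.458).

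The difference between the labels in the response of *Map3k5* was tested as the genotype by treatment interaction. It was -1.21 on the log2 scale, WT minus KO label (SE 0.23, unadjusted p = 0.000184), the gene of rank 2 of 16509 by p, but did not pass the adjusted threshold in edgeR (adjusted p = 0.847). The Wald test of DESeq2 gave it an adjusted p of 0.00394, within a range of 0.00394 to 1 over the 20 alternatives, in which the interaction itself ran from -1.33 to -1.05. In edgeR 0 of the 10 genes were called in the interaction, *Map3k5* alone had an unadjusted p under 0.05, and DESeq2 called *Map3k5* alone. Of all genes, 0% were called in either direction, 848 had an unadjusted p under 0.05, and DESeq2 called 7 higher and 2 lower.

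Between the labels with vehicle, *Map3k5* was 1.97-fold higher in WT (log2 fold change 0.98, SE 0.15, unadjusted p = 0.00017), of rank 20 among 15262 genes, but its adjusted p was 0.130. In edgeR 0 of the 10 genes were called in this comparison, where 0.0131% of all genes were called higher and 0.0131% lower in WT. DESeq2 called *Map3k5* alone among the 10 (adjusted p = 6.51e-06, with a range of 6.51e-06 to 0.425 over the alternatives). For *Map3k5* the difference with vehicle, the KO-label rise and the interaction share the same 3 KO-label vehicle livers. They are not independent results. The summed markers of 3 other cell types also had separate ranges between the labels with vehicle. Stellate cell markers (5 of 5 genes detected) summed to 70.1 to 85.2 TPM in WT and 123 to 152 TPM under the KO label, lymphocyte markers (5 of 5) had medians of 0.888 and 3.16 TPM, and erythroid markers (5 of 5) summed to 657 to 841 and 947 to 1560 TPM. Among these genes edgeR called 0, and all 5 stellate cell markers had an unadjusted p under 0.05. The erythroid sum does not hold for each marker. *Alas2* was higher in WT (log2 difference 0.37, WT minus KO label), whereas the hemoglobin genes ran from -0.78 to -0.74. The part of these 3 cell types in the difference of *Map3k5* was not tested. *Ripk1* was next in size, with a log2 difference of 0.57 (SE 0.26, adjusted p = 0.671), and it was 0.18 without WT vehicle liver 2. After APAP, 0 of the 10 genes were called between the labels by edgeR or DESeq2 and 0 had an unadjusted p under 0.05, where 0.0124% of all genes were called higher and 0.0185% lower in WT. The log2 differences of the 10 genes after APAP ran from -0.35 for *Map3k11* to 0.21 for *Ripk1*, and that of *Map3k5* was -0.22 (SE 0.18, adjusted p = 0.958).

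**Figure D3:**
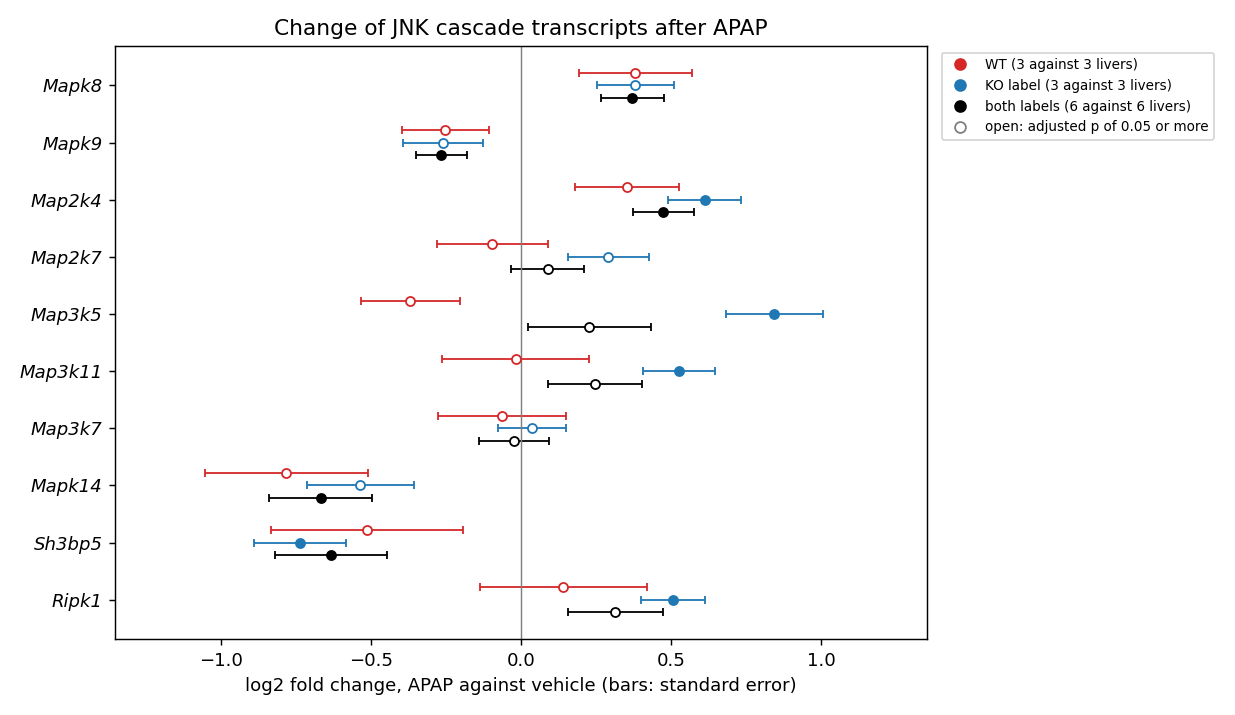
Log2 fold change of APAP against vehicle for each gene, with standard error (bars), in WT livers, in KO-label livers and over both labels, with filled points for an adjusted p under 0.05. *Map3k5* is at -0.37 in WT and 0.84 under the KO label, whereas *Mapk8* is at 0.38 in both.

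Within each label, APAP was compared with vehicle in 6 livers. In WT livers 0 of the 10 genes were called by edgeR, by limma or by DESeq2, 1 (*Mapk14*, log2 fold change -0.78, SE 0.27) had an unadjusted p under 0.05, and 1.62% of all genes were called higher and 0.427% lower. Under the KO label 4 genes were called higher and 1 lower, where 13.0% of all genes were called higher and 9.60% lower. These were *Map3k5*, *Map2k4* (log2 fold change 0.61, SE 0.12, adjusted p = 0.0102), *Map3k11* (0.53, SE 0.12, adjusted p = 0.0174), *Ripk1* (0.51, SE 0.11, adjusted p = 0.0128) and, in the lower direction, *Sh3bp5* (-0.74, SE 0.15, adjusted p = 0.0125). The calls of *Map3k5* and *Map2k4* were kept in all 14 alternatives. That of *Sh3bp5* was kept in 13 of them, that of *Ripk1* in 12 and that of *Map3k11* in 9. The *Map3k11* call was lost in 3 of the 6 fits that left out 1 liver, with an adjusted p of up to 0.0582. These were the fits without KO-label vehicle liver 1 or 3 or KO-label APAP liver 3. For *Mapk8* the log2 fold change was 0.38 in WT (SE 0.19) and 0.38 under the KO label (SE 0.13), and for *Mapk9* it was -0.25 (SE 0.14) and -0.26 (SE 0.13), none of them called. The interaction of *Map3k11* was -0.54 (SE 0.28, adjusted p = 0.872) and that of *Ripk1* -0.36 (SE 0.31, adjusted p = 0.882), with 0.01 for *Ripk1* without WT vehicle liver 2, so a difference between the labels was not shown for either.

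The 10 genes were then set in the wider pathway, with lists of related genes and the comparison over both labels, in which 14.0% of all genes tested were called higher and 11.4% lower. Of the 4 MAP kinase kinases of the JNK and p38 arms, 2 rose and 1 fell. *Map2k6*, which encodes the p38 activator MKK6, gave 8.17 to 50.4 CPM in the vehicle livers and 1.69 to 6.28 CPM in the APAP livers. Its log2 fold change of -3.02 (SE 0.41, adjusted p = 0.000281) had the opposite sign to that of *Map2k3*, which encodes the other p38 activator MKK3 (0.47, SE 0.14, adjusted p = 0.0263). Of the 6 JNK and p38 kinases tested, 1 rose and 2 fell, all of them described above.

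Among the 18 MAP3K genes 3 rose and 1 fell, where 14.0% of all genes were called higher and 11.4% lower, and the median log2 fold change was 0.10 against 0.01 over all genes tested. *Map3k6*, which encodes the ASK1 partner ASK2, gave 3.03 to 8.03 CPM with vehicle and 10.3 to 20.4 CPM after APAP (log2 fold change 1.67, SE 0.24, adjusted p = 0.000382). *Map3k2* rose by 0.97 and *Map3k3* by 0.49, whereas *Map3k21* fell by 1.07 on the log2 scale. Of the 7 MAP4K genes, which act above the MAP3Ks, 2 rose and 1 fell, and *Map4k4* had the largest change of them (1.25, SE 0.15, adjusted p = 0.00014) beside *Map4k5* (0.47) and *Map4k2* (-0.30). Of 8 scaffold genes 3 rose and 0 fell, namely *Spag9* (0.44) and *Mapk8ip3* (0.40), whose products hold JNK modules together, and *Flna* (1.25), of the actin-binding filamin A.

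Partners of single members were examined next. Their counts stand against the same 14.0% of all genes called higher and 11.4% lower. In the TAK1 complex 1 of 7 genes rose (*Traf2*, 0.33) and 1 fell (*Xiap*, -0.56). Of 12 genes listed for ASK1, which are *Map3k5* itself and its regulators, 3 rose and 1 fell. These were *Map3k6*, *Traf2*, *Ywhaz* (0.64, SE 0.10, adjusted p = 0.000713), of a 14-3-3 protein that binds ASK1, and *Ppp5c* (-0.30), of a phosphatase that acts on it. Of the 9 genes around SAB and the mitochondrial death step, *Mcl1* (0.91) and *Bax* (0.38) rose and *Sh3bp5* and *Ptpn6* (-0.37) fell. In the RIPK1 and TNF receptor complex edgeR called 0 of 14 genes, with 5 at an unadjusted p under 0.05, and the smallest p was that of *Mlkl*, the executor of necroptosis (0.58, SE 0.20, adjusted p = 0.0532).

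The phosphatases that act on MAP kinases and the listed targets of JNK had larger fold changes. Of 11 phosphatase genes 7 rose and 0 fell, against 14.0% of all genes called higher and 11.4% lower, the median log2 fold change was 1.57, and *Dusp4*, *Dusp10*, *Dusp1* and *Dusp8* rose by 3.35, 2.97, 3.43 and 5.22. Of 10 listed targets of JNK 8 rose and 1 fell (*Itch*, -0.97), with a median of 1.90, and *Atf3*, *Jun*, *Fos* and *Jund* rose by 9.22, 6.71, 6.93 and 2.55. The list also holds *Bcl2l11*, *Bbc3* and *Itch*, whose products are not transcription factors. By comparison, the largest absolute log2 fold change among the 10 cascade genes in this comparison was 0.67.

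**Figure D4:**
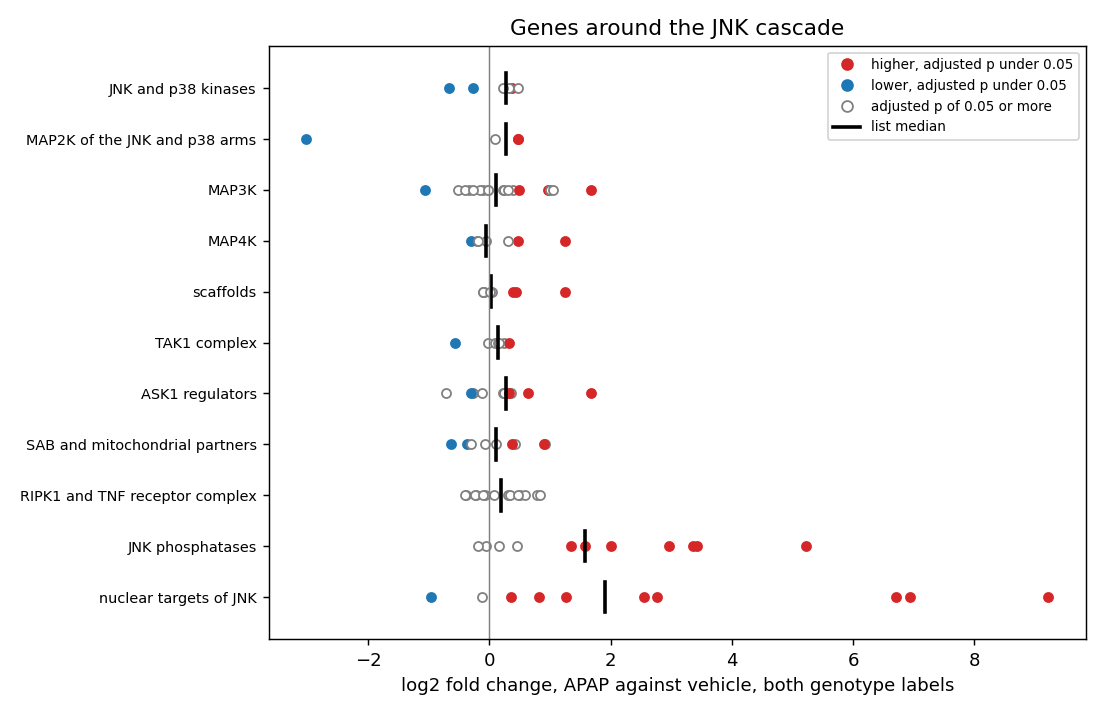
Log2 fold change of APAP against vehicle over both labels for each tested gene of the pathway lists (points), with the median of each list (black bar), filled where the adjusted p was under 0.05. The medians are 1.57 for the MAP kinase phosphatases (labelled JNK phosphatases) and 1.90 for the listed targets of JNK (labelled nuclear targets of JNK), and between -0.05 and 0.28 for the other lists.

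Across the 12 livers, the levels of some members moved together or apart, and these correlations of log2 CPM are descriptions of livers that share a treatment. *Mapk8* had Pearson r of -0.88 with *Mapk9* and 0.77 with *Map2k4*, and *Mapk9* had r of -0.83 with *Map2k4*. For the 3 members with the largest changes, the genes most alike in pattern were sought among the genes tested. They were *Cpn2*, *Tpcn1* and *Lgr4* for *Mapk14* (r = 0.99, 0.96 and 0.95), *Ipp*, *Nudt13* and *Dcaf17* for *Sh3bp5* (r = 0.97, 0.97 and 0.96) and *Spata5* and *Grwd1* for *Map2k4* (r = 0.99 and 0.98).

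Among markers of other cells, the summed neutrophil list (5 of 6 genes detected, *Mpo* at 0 in each group) was 0.828 to 39.4 TPM in WT vehicle livers and 25.8 to 234 TPM in WT APAP livers, and 0.972 to 3.37 TPM and 1.27 to 18.4 TPM under the KO label. The summed Kupffer cell and macrophage list was 42.1 to 123 TPM with vehicle and 56.7 to 122 TPM after APAP. Within that list edgeR called *Cd68* higher over both labels (log2 fold change 1.51, SE 0.17, adjusted p = 8.14e-05). It did not call *Clec4f*, *Vsig4*, *Timd4*, *Adgre1* or *Csf1r* (-0.36 to 0.18). Of the endothelial markers it called *Pecam1* (0.41, adjusted p = 0.0121) and *Cdh5* (0.73, adjusted p = 0.0130) higher, but not *Stab2*, *Clec4g* or *Kdr* (-0.42 to 0.08). Summed stellate cell, lymphocyte and erythroid markers, which parted the labels with vehicle, overlapped between the labels after APAP, at 109 to 131 TPM in WT and 107 to 116 TPM under the KO label for the stellate cell list. The part of these cells in the changes of the cascade was not tested.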

How the data were processed

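Liver RNA-seq data of 12 mice, 3 per group, were used, and each column was assigned to a liver by its label, with 0 columns left unassigned. All tests used the gene read counts, which the authors deposited as raw whole numbers. Levels and ratios used the TPM column that the authors deposited, in which length and depth are already accounted for. The authors also deposited FPKM, which was not tested. The submitters' processing notes name FastQC 0.11.7, Trimmomatic 0.38, HISAT2 2.1.0, Bowtie2 2.3.4.1 and StringTie 2.1.3b, with the builds mm10 and GRCm38, and the study itself tested quantile-normalized log TPM. Libraries were stranded and poly-A selected, and all replicates are separate livers.

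Counts passed filterByExpr, were scaled by TMM and entered glmQLFit and glmQLFTest of edgeR 4.0.16 (R 4.3.3), adjusted by Benjamini-Hochberg over all genes tested at a threshold of 0.05. The standard error was taken from the fold change and the F statistic. Comparisons within a label or a treatment used 6 livers, and the others used all 12. Likeness of pattern was Pearson r of log2 CPM with a prior count of 2. Alternatives were a Wald test with DESeq2 1.42.0, its size factors in place of TMM, testing without a filter or with at least 10 counts in every liver, limma 3.58.1 on log2 TPM after quantile normalization (adding 1 or 0.1 to TPM), 1 fit of all 12 livers, no genotype term, the liver number as a block, and leaving out each liver. The analysis was tested on simulated data. The genes, pathway lists and markers were chosen with earlier results of these data known. Named genes were the 10 members, *Gna12*, up to 4 called genes per pathway list by smallest p (where none was called, the gene of smallest p), and 3 genes alike in pattern to each of the 3 members with the largest changes, of which 1 is not reported here. Genes of the blood and marker lists are named as quality measures.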

Additional observations from a re-analysis of the deposited data

Results flagged for a closer look

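The log2 fold change of *Map3k5*, the gene of ASK1, after APAP had opposite signs under the labels, but edgeR called only the KO-label rise. It was 0.84 under the KO label (adjusted p = 0.00917) and -0.37 in WT (adjusted p = 0.298). With vehicle its lowest WT value was 80.9 CPM and its highest KO-label value 51.5 CPM, and all 3 WT livers were lower and all 3 KO-label livers higher after APAP than with vehicle. The genotype by treatment interaction was -1.21 on the log2 scale (WT minus KO label, SE 0.23), with an adjusted p of 0.847 by edgeR and of 0.00394 by DESeq2, and its direction was the same in all 20 alternatives. The KO-label rise, the difference with vehicle and the interaction share the same 3 KO-label vehicle livers and are not independent results. Groups of 3 livers were given no test for an outlying liver.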

How the results depend on the processing

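Over both labels, the number of members called higher (2 as reported) was 1 with limma on log2(TPM + 1), 1 with limma on log2(TPM + 0.1), where *Mapk8* was no longer called (adjusted p = 0.0844 and 0.117), and 4 without both WT APAP liver 1 and WT vehicle liver 2, which was chosen after seeing the data; the number called lower (3 as reported) ranged from 1 to 3 when 1 liver was left out. Under the KO label, 4 higher as reported became 2 with limma on log2(TPM + 0.1) and 2 with all 12 livers in 1 fit, and 1 lower became 2 with the Wald test of DESeq2, 0 with all 12 livers in 1 fit, and 1 to 2 when 1 liver was left out. The Wald test of DESeq2 called 1 member (*Map3k5*) higher in WT with vehicle and 1 member (*Map3k5*) lower in the interaction. With the liver number as a replicate block, the members called lower under the KO label were 2 (*Mapk14* added), those over both labels were 2 higher and 2 lower (*Mapk9* lost, adjusted p = 0.0584), and no other count of members changed. Livers with the same number did not deviate together (r of -0.26 to 0.11 over 18 pairs, against -0.15 to 0.32 over 36 pairs of other numbers), so the numbers were not taken as a pairing. Directions turned only for log2 fold changes that were not called as reported. In WT, *Map2k7* ran from -0.20 to 0.055 when 1 liver was left out and was 0.054 without both livers named above, *Map3k11* ran from -0.17 to 0.21 and was 0.22, *Map3k7* ran from -0.19 to 0.085 and was 0.24, and *Ripk1* ran from -0.089 to 0.51. *Map3k7* was -0.045 and -0.048 under the KO label with limma at + 1 and + 0.1, and over both labels ran from -0.073 to 0.060 and was 0.12 without both livers. Between the labels after APAP, *Mapk8* ran from -0.21 to 0.084, *Mapk9* from -0.062 to 0.043, *Map3k7* from -0.14 to 0.13, *Mapk14* from -0.21 to 0.26 and *Sh3bp5* from -0.17 to 0.29, *Mapk9* was -0.0095 with all 12 livers in 1 fit, and *Mapk14* was -0.020 and -0.022 with limma at + 1 and + 0.1. Between them with vehicle, *Mapk8* ran from -0.097 to 0.033, *Mapk9* from -0.089 to 0.091, *Map2k4* from -0.066 to 0.13, *Map3k7* from -0.089 to 0.14 and *Sh3bp5* from -0.31 to 0.13, and *Map2k4* was -0.017 and -0.018 with limma. The interaction of *Ripk1* ran from -0.57 to 0.011 and was 0.067 without both livers, that of *Mapk8* ran from -0.18 to 0.13 and was 0.016 with at least 10 counts in every liver and 0.011 and 0.0099 with limma, and that of *Mapk9* ran from -0.094 to 0.079 and was -0.0038 with DESeq2 size factors, -0.0030 with its Wald test and -0.014 without both livers. The interaction of *Map3k7* ran from -0.23 to 0.051 and was 0.20 without both livers, that of *Mapk14* was 0.11 without both livers, and that of *Sh3bp5* ran from -0.061 to 0.43. The cause of these changes was not tested. Of 980 alternative values of the 10 genes in the 6 comparisons, 880 kept direction and side of the threshold. Counts over all genes moved more: in WT, 255 higher and 67 lower became 877 and 536 by DESeq2, 968 and 555 with all 12 livers in 1 fit, 61 and 1 with the block, 162 and 59 with limma on log2(TPM + 1), 435 and 196 without both livers, and 41 to 316 and 0 to 126 with 1 liver left out. Under the KO label, 2034 and 1504 became 1405 and 844 with all 12 livers in 1 fit and 1261 to 1967 and 734 to 1401 with 1 liver left out. With vehicle, 2 and 2 between the labels became 62 and 75 by DESeq2, after APAP 2 and 3 became 21 and 8, and in the interaction 0 and 0 became 7 and 2. With all 12 livers in 1 fit, 0 and 0 were called between the labels in either treatment. Each member had at least 797 counts in every liver.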
